A study of Mus musculus with 10 samples.

Results

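Retinal cell identity transcription factors are the DNA-binding proteins, and a few of their partners, that specify photoreceptors, bipolar, horizontal and amacrine cells or maintain them in the mature eye. They were taken from the deposited table by gene symbol, and all 51 symbols sought were among its 25905 genes. For description they were sorted by the cell class each is best known for, with 13 photoreceptor, 9 bipolar, 4 horizontal and 14 amacrine factors, and 11 factors of the eye field and of retinal patterning that act across classes. Several factors serve more than 1 class, so the sorting is a convenience.

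The samples were 10 retinas from 5 wild-type C57BL/6J mice numbered 61, 64, 65, 66 and 68, taken on postnatal day 34, with 5 right and 5 left retinas. From postnatal day 24, for 10 days, every mouse wore a lens of −20 dioptres over 1 eye, which moves focus behind the retina and drives the growing eye towards myopia, and its fellow eye had no lens. Side and mouse number are labelled for every retina, the lens eye is not, so right was compared with left retina, fellow eye with fellow eye, and mouse with mouse. Every mouse was anaesthetised and fitted with a goggle, so no retina came from an untouched animal. Libraries were made with a stranded kit from total RNA of whole retina after removal of ribosomal RNA, and in whole tissue fewer cells of a type and less RNA per cell cannot be told apart.

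In the mouse retina the choice between cell types rests on small combinations of these factors. OTX2 and CRX switch on photoreceptor genes, NRL and NR2E3 then direct a photoreceptor to become a rod and keep cone genes silent, and VSX1, ISL1 and the IRX factors divide the bipolar cells. PTF1A and the ONECUT factors lead to horizontal and amacrine cells, and PAX6, RAX, SIX3, SIX6 and LHX2 define the eye field from which all of these arise. Many remain on in the adult, where they hold cell identity.

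The deposited values are in CPM, read counts scaled to the size of the library and not divided by gene length. Inferred from the smallest step between values, 1 CPM stood for 89.6 to 113.7 counts, and the counts of listed genes added up to between 29660000 and 37230000. Retinal transcripts were abundant in every library: the 21 rod genes of a fixed list summed to 15586 to 17794 CPM and the 14 cone genes to 421 to 548 CPM. Transcripts of tissue next to the retina differed between libraries. The 18 listed lens genes reached 910 CPM in mouse 65's right retina, where the other 9 libraries had 12.5 to 157 CPM, and 10 skeletal muscle genes reached 90.4 CPM in mouse 68's left retina, where the others had 2.07 to 4.78 CPM. For mouse 64's right retina the labels record that part of the second-read file was corrupted and removed.

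The photoreceptor factors on which the comparisons turn are shown here by the DNA just before their start sites (RefSeq, GRCm38.p6, strand as given, 5′ to 3′), because these are the factors that differed most between mice, with Crx, which differed little, beside them. Up to 250 bases before the start are printed, without bases that GENCODE M21 places in an exon of the gene. The RefSeq start of Nr2e3 lies inside the span the deposited table gives, which begins further upstream. Capitals mark TAATCC or its reverse complement GGATTA, the core bound by CRX and OTX2, and TGCTGA or TCAGCA, a core bound by NRL and its relatives.

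Nr2e3, chr9:59950118-59950329, minus strand: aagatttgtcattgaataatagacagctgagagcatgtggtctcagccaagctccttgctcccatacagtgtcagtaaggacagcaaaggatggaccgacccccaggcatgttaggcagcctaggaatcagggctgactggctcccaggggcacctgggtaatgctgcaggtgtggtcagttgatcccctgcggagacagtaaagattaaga
Samd7, chr3:30746043-30746292, plus strand: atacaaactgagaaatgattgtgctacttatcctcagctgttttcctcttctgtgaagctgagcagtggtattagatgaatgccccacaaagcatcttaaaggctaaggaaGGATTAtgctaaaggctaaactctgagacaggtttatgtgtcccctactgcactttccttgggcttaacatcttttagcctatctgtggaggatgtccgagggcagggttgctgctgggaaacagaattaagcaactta
Esrrb, chr12:86360867-86361116, plus strand: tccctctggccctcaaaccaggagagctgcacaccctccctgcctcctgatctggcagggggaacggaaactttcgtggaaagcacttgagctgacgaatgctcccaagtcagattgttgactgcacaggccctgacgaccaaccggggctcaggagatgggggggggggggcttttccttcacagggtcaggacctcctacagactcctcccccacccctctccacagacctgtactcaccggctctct
Rorb, chr19:19111197-19111446, minus strand: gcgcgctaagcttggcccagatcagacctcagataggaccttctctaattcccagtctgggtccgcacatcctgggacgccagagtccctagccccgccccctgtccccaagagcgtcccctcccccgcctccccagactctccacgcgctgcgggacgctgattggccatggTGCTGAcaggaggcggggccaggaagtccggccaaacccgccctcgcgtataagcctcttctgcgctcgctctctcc
Crx, chr7:15879969-15880205, minus strand: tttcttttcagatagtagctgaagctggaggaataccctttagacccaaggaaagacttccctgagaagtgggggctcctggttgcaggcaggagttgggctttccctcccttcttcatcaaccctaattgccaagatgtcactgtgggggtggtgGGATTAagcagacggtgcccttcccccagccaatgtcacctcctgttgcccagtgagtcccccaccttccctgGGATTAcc

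Crx held GGATTA at 94 and at 21 bases before its RefSeq start, and Samd7 held it at 139 bases. In Crx the last 13 bases before that start lie in an exon and are not printed. Rorb held TGCTGA at 77 bases before the start printed, and neither core was in the Nr2e3 and Esrrb windows printed. Rorb and Esrrb each have a further RefSeq start, 110079 and 60527 bases from their deposited starts. Neither core was in the windows before those starts. The promoter table covered 41 of the 51 factors with 64 start sites. Of 20 photoreceptor factor windows 4 held TAATCC or GGATTA, a share of 20%, against 6.25% of all 32851 windows of the same length, and 5 (25%) held TGCTGA or TCAGCA, against 16.1% of all windows. Over the windows of all classes the shares were near the background, at 5 of 64 (7.81%) and 9 of 64 (14.1%), and of the 7 bipolar factor windows 1 (14.3%) and 3 (42.9%) held them. On both strands, AGGTCA, a core bound by nuclear receptors, was in 3 of the 20 windows (14% of all windows), and CAGATG, an E-box bound by NEUROD proteins, also in 3 (14.4% of all). TGCTGA and TGACCT, the reverse complement of AGGTCA, can share bases. Start sites of 1 gene share sequence, and these matches describe letters and show no binding.

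The factors differed widely in level, and photoreceptor factors were the most abundant. By mean CPM, 4 factors lay at 100 or above, 23 between 10 and 100, 19 between 1 and 10, and 5 under 1. Values per kilobase divide by all merged exons annotated for a gene, so the order depends on that annotation. On that scale Crx stood first at 123 ± 5.76 CPM (SD, n = 10 libraries of 5 mice). Nrl, the leucine zipper that commits a photoreceptor to the rod fate, followed at 53.4 ± 4.06, then Nr2e3, the rod nuclear receptor that silences cone genes, at 47.7 ± 11.6, Neurod1, a basic helix-loop-helix factor of photoreceptors, at 35.5 ± 4.91, and Rorb, a nuclear receptor upstream of Nrl, at 26.2 ± 3.14 CPM per kilobase. Crx was above Nrl in 10 of 10 libraries. Nrl was above Nr2e3 in only 6 of 10, so those levels did not differ beyond their spread, while Neurod1 was above Rorb in 10 of 10. Before division by length the order was the reverse, with Rorb at a mean of 290 CPM and Neurod1 at 97.0 CPM.

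Among the other photoreceptor factors, Otx2, which acts above Crx and is also made in bipolar cells and pigment epithelium, measured 13.9 ± 0.778 CPM per kilobase. Esrrb, an orphan nuclear receptor needed for rod survival, and Samd7, which with Polycomb proteins represses non-rod genes in rods, both measured 12.7 and could not be ordered (5 of 10 libraries). Mef2d, a partner of CRX at photoreceptor genes, stood at 9.15, Casz1, a zinc finger protein of rod nuclei, at 5.53, and Mef2c at 3.59 CPM per kilobase. Prdm1, which keeps young photoreceptors from turning into bipolar cells, was low at 1.34, and Sall3, a zinc finger factor of short-wave cones and horizontal cells, was the lowest of the class at 0.185.

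Neurod4 was the most abundant bipolar factor, at 16.6 ± 1.29 CPM per kilobase. Isl1, of ON bipolar, cholinergic amacrine and ganglion cells, followed at 5.88, Prdm8, needed for rod bipolar cells, at 3.30, Lhx4, of cone bipolar cells and cones, at 2.95, and Vsx1, of cone bipolar cells, at 2.69. Bhlhe22, of OFF cone bipolar and some amacrine cells, measured 2.25, Bhlhe23, of rod bipolar cells, 1.28, and the cone bipolar factors Irx6 and Irx5 measured 1.08 and 0.233 CPM per kilobase. Horizontal factors differed widely in level. Prox1, which is shared by horizontal cells, AII amacrine cells and some bipolar cells, measured 10.0 ± 0.591, whereas the horizontal factors Onecut2, Onecut1 and Lhx1 measured 0.573, 0.523 and 0.214 CPM per kilobase.

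Pax6, the paired-box factor of amacrine and ganglion cells, led the amacrine class at 8.50 ± 0.365 CPM per kilobase, ahead of Tfap2b at 5.70, Meis1 at 4.73 and Meis2, of GABAergic amacrine cells, at 3.99. Tfap2c and Tfap2a measured 0.816 and 0.440, below their relative Tfap2b. Barhl2, Ebf1, Ebf3, Neurod2, Satb1 and Lhx9, which mark or specify amacrine subtypes, lay between 0.433 and 1.65, and Neurod6 at 0.156 CPM per kilobase. Ptf1a, which acts in the embryonic retina, was close to nothing. It was listed at 0 in 3 right and 1 left retina, and it reached at most 0.0282 CPM in a right and 0.0949 CPM in a left retina, where 3 counts are 0.0264 to 0.0335 CPM in a library.

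Of the eye field and patterning factors, Rax, which is on in photoreceptors and Müller glia of the adult, led at 4.97 ± 0.313 CPM per kilobase, followed by Six6 (4.06), the ventral factor Vax2 (3.33), Zeb2 (3.16) and the dorsal factor Tbx2 (2.43). Six3, Sox4, Lhx2, Tbx3, Sox11 and Sall1, in that order, went down to 0.0675 CPM per kilobase. For 8 of the 51 factors another gene overlapped on the map with at least 10% of the factor's own CPM, and whether the counting used the strand is not given. The antisense genes Vax2os and Six3os1 averaged 46.7 and 29.2 CPM, above Vax2 (4.14 CPM) and Six3 (5.36 CPM) themselves, and the antisense gene 4930447C04Rik averaged 27.7 CPM over Six6 (16.3 CPM). Cerkl, which overlaps Neurod1 (97.0 CPM) on the same strand, averaged 28.6 CPM. The antisense gene Otx2os1 averaged 8.84 CPM over Otx2 (58.8 CPM). Values of the 8 factors are therefore uncertain, most of all those of Vax2, Six3 and Six6.

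**Figure D1:**
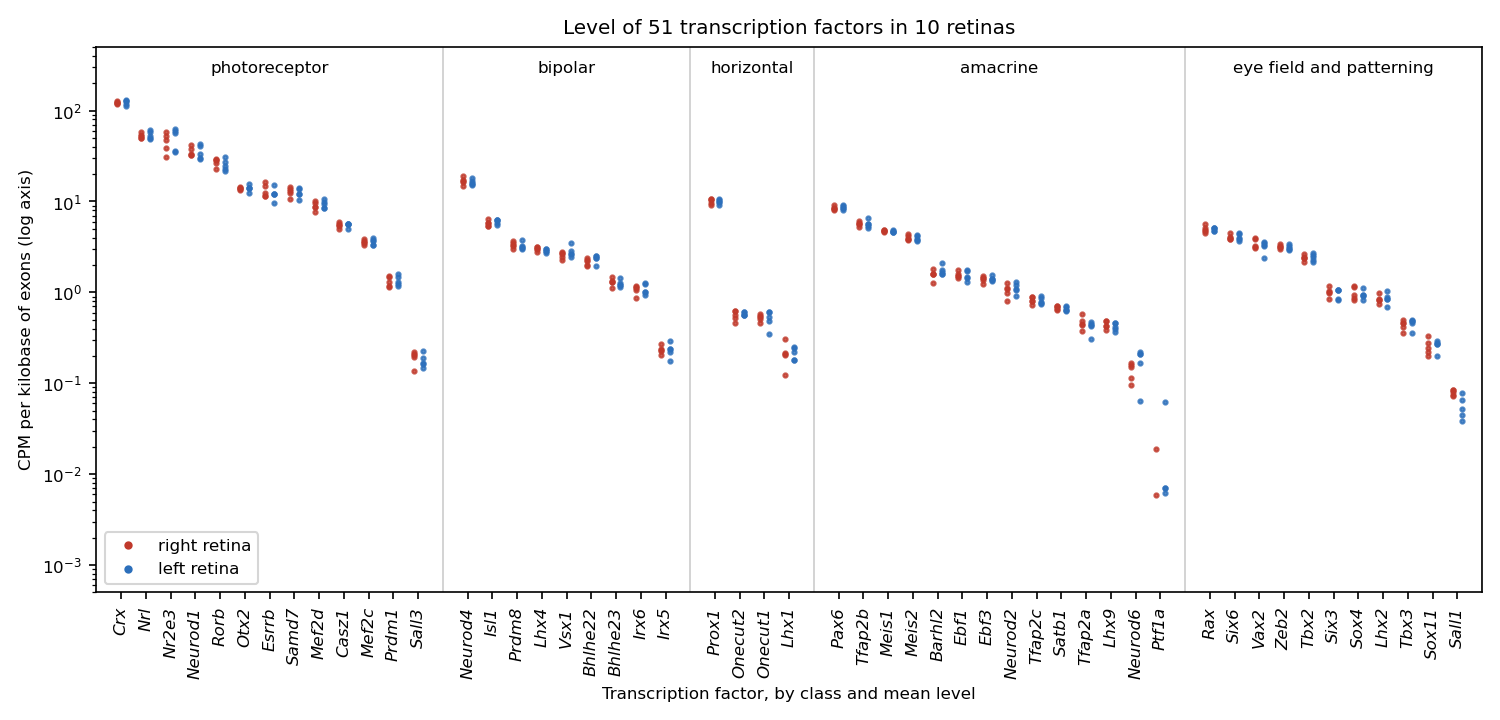
CPM per kilobase of exons (log axis) of each factor in 5 right retinas (red) and 5 left retinas (blue), by class and mean level. Crx stands highest at 123 CPM per kilobase, points of both sides lie over each other, and the 4 libraries in which Ptf1a was listed at 0 are not drawn.

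Right against left retina was compared first, the only contrast by side that the labels allow. No identity factor passed the test. Values were compared as log2(CPM + 1) with limma, the mouse as a block, over the 14210 genes that averaged 1 CPM or more, and p-values were adjusted by Benjamini-Hochberg over all of them with a threshold of 0.05. Of the 51 factors 46 passed the filter on level. Limma called 0 of the 46 higher and 0 lower in right retinas (smallest adjusted p = 0.9996), beside 0% of all genes in either direction. At an unadjusted p under 0.05 there was 1 of 46, Esrrb, against 2.34% of all genes. Right and left values overlapped for every one of the 51 factors.

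The differences were small and their intervals narrow. The 46 estimates ran between −0.12 and 0.12 log2 units, 23 above and 23 below 0, and the 95% intervals reached at most −0.30 and 0.28. None of the 46 was higher in the right retina of all 5 mice and none was lower in all 5, where 2.78% and 2.01% of all genes were. Meis1, a homeodomain factor, had one of the tightest intervals, with a difference of 0.02 (95% interval −0.05 to 0.09). Crx differed by −0.01 (95% interval −0.09 to 0.07), Otx2 by −0.01 (−0.09 to 0.08), Pax6 by −0.02 (−0.10 to 0.07) and Prox1 by 0.01 (−0.08 to 0.10). For these factors larger differences lay outside the interval, and smaller ones were not detectable with 5 pairs.

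**Figure D2:**
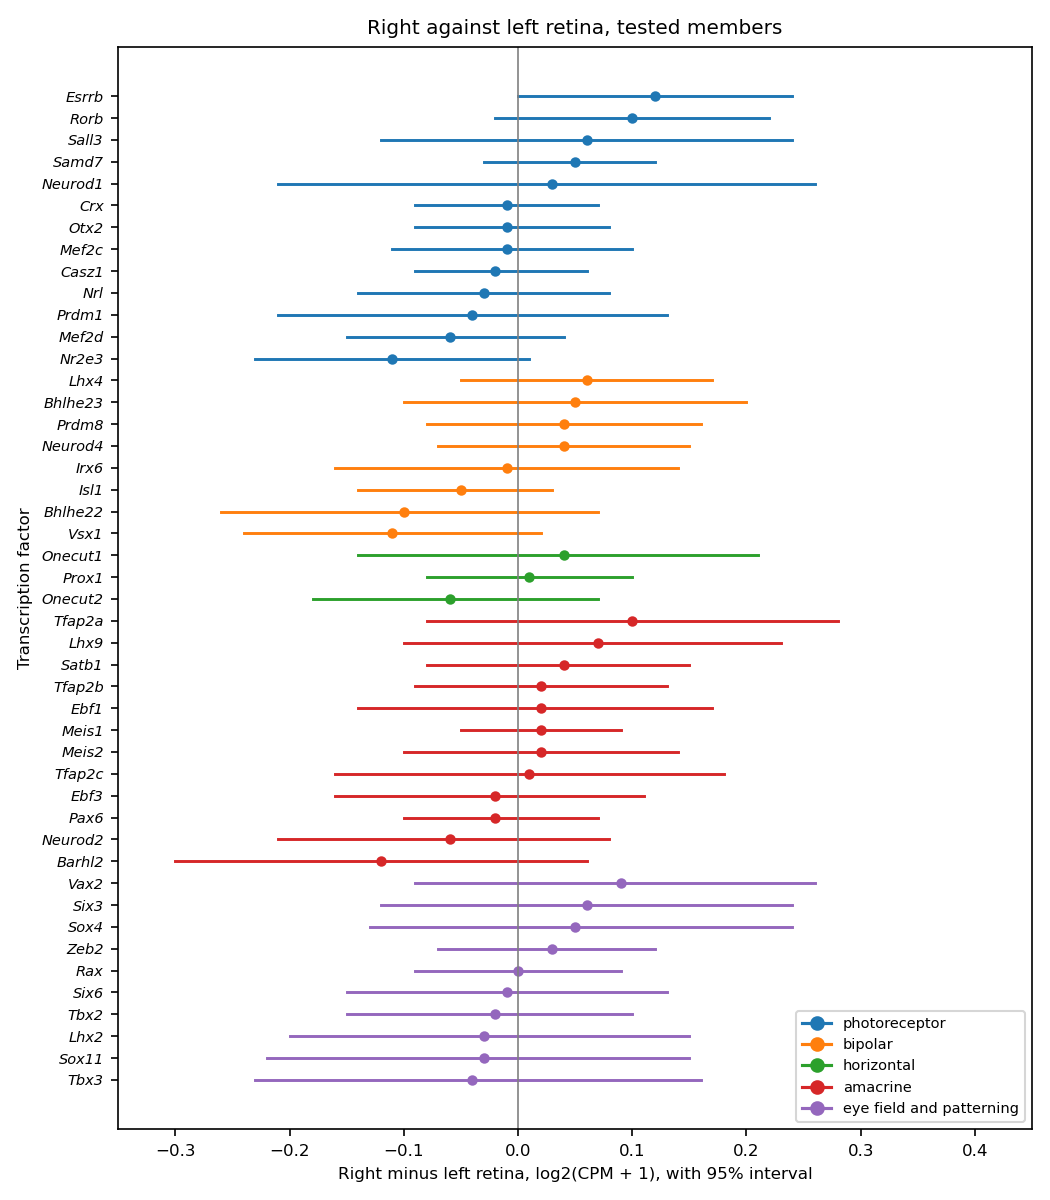
Right minus left retina in log2(CPM + 1) with its 95% interval from limma (n = 5 pairs) for the 46 tested factors, coloured by class. The points lie between −0.12 and 0.12 and no interval passed the adjusted threshold.

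The factors at the head of that comparison were Esrrb, Nr2e3, Vsx1, Rorb, Barhl2 and Samd7. Esrrb had 74.6, 68.9, 99.8, 68.9 and 89.7 CPM in the right retinas of mice 61, 64, 65, 66 and 68, against 72.5, 73.6, 91.3, 57.6 and 73.0 CPM in the left retinas. The right retina was higher except in mouse 64, and the groups overlapped. The mean difference was 0.12 log2 units (SE 0.05, 95% interval 0.00 to 0.24, limma adjusted p = 0.9996). Vsx1 had 10.6, 10.0, 9.32, 10.2 and 8.58 CPM in right and 13.2, 10.7, 9.38, 9.96 and 10.0 CPM in left retinas. The left retina of mouse 61 was the highest, and only in mouse 66 was the right retina above the left. The mean difference was −0.11 log2 units (SE 0.06, 95% interval −0.24 to 0.02, limma adjusted p = 0.9996).

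Barhl2, an amacrine homeodomain factor, had 2.96, 3.66, 4.18, 3.66 and 3.64 CPM in right and 4.07, 3.69, 3.89, 4.81 and 3.66 CPM in left retinas (−0.12, SE 0.08). Its lowest value was the right retina of mouse 61 and its highest the left retina of mouse 66, and in the other mice the eyes lay closer together. The difference was −0.06 without mouse 61 and −0.07 without mouse 66, but −0.17 without mouse 65 and −0.15 without mouse 64 or mouse 68. It was −0.07 with a pseudocount of 5 CPM and −0.15 with 0.1 CPM, as the pseudocount weighs on values this low. Leaving out 1 mouse moved others too. Esrrb lay at 0.08 without mouse 68 and at 0.18 without mouse 64. Vsx1 lay at −0.07 without mouse 61 and at −0.15 without mouse 66. Nr2e3 lay at −0.18 without mouse 65 and at −0.08 without mouse 68, and Samd7 at 0.03 without mouse 61 and 0.06 without mouse 64. Sall1, named here after its values were seen, lay under the filter and was higher on the right in 5 of 5 mice, with 0.379, 0.423, 0.446, 0.448 and 0.394 CPM in right and 0.20, 0.238, 0.408, 0.342 and 0.276 CPM in left retinas. With a filter of 0.2 CPM its difference was 0.14 (SE 0.06, limma unadjusted p = 0.0333, adjusted p = 0.9997). On log2(CPM + 1) that understates the change of so weak a gene, whose means were 0.418 CPM in right and 0.293 CPM in left retinas. SALL1 is also a factor of microglia, whose 11 listed genes summed to 10.5 to 12.4 CPM in right and 9.42 to 12.9 CPM in left retinas, and their part in it was not tested. Values of Nr2e3, Rorb and Samd7 are given with the comparison of mice.

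The remaining factors lay on both sides of 0 in every class. Bipolar factors differed by −0.11 to 0.06 log2 units and horizontal factors by −0.06 to 0.04. Isl1 lay between 21.4 and 25.1 CPM (median 22.9) in right and between 21.6 and 24.7 CPM (median 24.6) in left retinas, with a difference of −0.05 (SE 0.04). Onecut1, which with Onecut2 specifies horizontal cells, lay between 1.91 and 2.37 CPM in right and between 1.42 and 2.50 CPM in left retinas. Right and left overlapped for both factors.

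Amacrine factors other than Barhl2 differed by −0.06 to 0.10, and eye field and patterning factors by −0.04 to 0.09. Tfap2a, which with Tfap2b specifies amacrine and horizontal cells, averaged 2.27 ± 0.349 CPM in right and 2.05 ± 0.328 CPM in left retinas, with a difference of 0.10 (SE 0.08). Vax2 averaged 4.29 ± 0.522 CPM in right and 3.99 ± 0.592 CPM in left retinas (SD, n = 5 each), with a difference of 0.09 (SE 0.08). Rax averaged 29.0 ± 2.42 CPM in right and 29.0 ± 1.29 CPM in left retinas. The other factors too weak to test overlapped as well. Irx5 lay at 0.646 to 0.836 CPM in right and 0.552 to 0.916 CPM in left retinas, and Lhx1 at 0.502 to 1.24 CPM in right and 0.733 to 1.03 CPM in left retinas. Neurod6 lay at 0.208 to 0.357 CPM in right and 0.138 to 0.475 CPM in left retinas.

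Mice were compared next, and 2 photoreceptor factors passed. Limma's F-test over the mouse terms called 2 of the 46 factors, Nr2e3 and Samd7, where 0.570% of all genes were called. At an unadjusted p under 0.05 there were 8 of 46 (17.4%), near the 13.8% of all genes. They were 6 of 13 photoreceptor, 1 of 8 bipolar (Vsx1) and 1 of 12 amacrine factors (Neurod2). None of the 3 horizontal and 10 eye field and patterning factors tested was among them. With so few factors in a class, the classes were not compared by a test. Apart from the note on the right retina of mouse 64, the labels give the mice only their numbers.

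Nr2e3 (chromosome 9, bases 59942771 to 59960659 of GRCm38, minus strand) varied most. It had 105, 197, 132, 178 and 160 CPM in the right retinas of mice 61, 64, 65, 66 and 68, and 122, 211, 117, 199 and 189 CPM in their left retinas. Both retinas of mice 61 and 65 were low, and their 4 values did not overlap with the 6 of the other mice. The mouse means spanned 0.84 log2 units (limma F-test adjusted p = 0.00433), and 93.0% of the variation on the log2 scale lay between mice, against 2.50% between sides. Right minus left was −0.11 log2 units (SE 0.05, lower in 4 of 5 mice). Mice 61 and 65 were also the ones with Xist, the RNA that coats the inactive X chromosome, at 707 to 802 CPM, where the other mice had 0.779 to 1.87 CPM. The part of sex in the level of Nr2e3 was not tested. The adjusted p was 0.0798 without mouse 61 and 0.0502 with no trend in the prior variance.

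Samd7 (chromosome 3, bases 30746293 to 30767174, plus strand) varied less, but its fellow eyes lay close together. It had 51.9, 54.8, 49.6, 43.0 and 58.2 CPM in the right and 47.9, 55.2, 47.9, 41.7 and 56.4 CPM in the left retinas of the same mice. Mouse 66 was lowest and mouse 68 highest in both eyes, an order unlike that of Nr2e3. The means spanned 0.43 log2 units (adjusted p = 0.0221), with 95.9% of the variation between mice, and right minus left was 0.05 (SE 0.03). Without mouse 66 the span was 0.23. The call was lost without mouse 61, 66 or 68 (adjusted p = 0.0681, 0.215 and 0.166) and with no trend in the prior variance (0.179).

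Esrrb came next, with mouse means of 73.6, 71.3, 95.5, 63.2 and 81.4 CPM in mice 61, 64, 65, 66 and 68 (range 0.59 log2 units, adjusted p = 0.0764). Without mouse 65, the highest, the range was 0.36. It passed without mouse 64 (adjusted p = 0.0149), with values scaled to a common sum (0.0423) and with a robust prior (0.0422). Rorb had 314, 292, 319, 251 and 321 CPM in right and 298, 271, 341, 237 and 254 CPM in left retinas (range 0.43, adjusted p = 0.213, right minus left 0.10 with SE 0.05). Without mouse 66 its range was 0.23, and without mouse 68 its right minus left was 0.04. Mouse 65 was highest and mouse 66 lowest for Esrrb and for Rorb alike. Mef2d had 46.3, 57.4, 52.6, 60.3 and 51.7 CPM in right and 51, 63.1, 50.4, 58.5 and 56.5 CPM in left retinas (range 0.30, adjusted p = 0.208), lowest in mice 61 and 65 as Nr2e3 was. Neurod2, of AII and other amacrine cells, had 2.52, 4.01, 3.11, 3.50 and 3.44 CPM in right and 2.85, 3.80, 3.39, 4.13 and 3.34 CPM in left retinas (range 0.41, adjusted p = 0.280), again lowest in mouse 61 and with a range of 0.21 without it.

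Crx and Nrl were steady beside them. Crx had 381, 403, 380, 393 and 375 CPM in right and 372, 403, 410, 405 and 353 CPM in left retinas, a spread of 4.70% of the mean over the 10 libraries (coefficient of variation), where that of Nr2e3 was 24.2%. Nrl averaged 300 ± 18.1 CPM in right and 307 ± 29.1 CPM in left retinas (SD, n = 5 each), with mouse means that spanned 0.21 log2 units (adjusted p = 0.420). No rod, cone or bipolar cell gene of the fixed lists was called with them by limma: 0 of 21 rod genes, 0 of 14 cone genes and 0 of 17 tested bipolar cell genes were called between mice, and 3, 5 and 5 had an unadjusted p under 0.05. Reep6, a rod gene, had the lowest p of its list, with a range of 0.70 log2 units (adjusted p = 0.123). Pde6c, a cone phosphodiesterase gene, had a range of 0.25 (0.215), and Nyx, of ON bipolar cells, one of 0.55 (0.165).

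**Figure D3:**
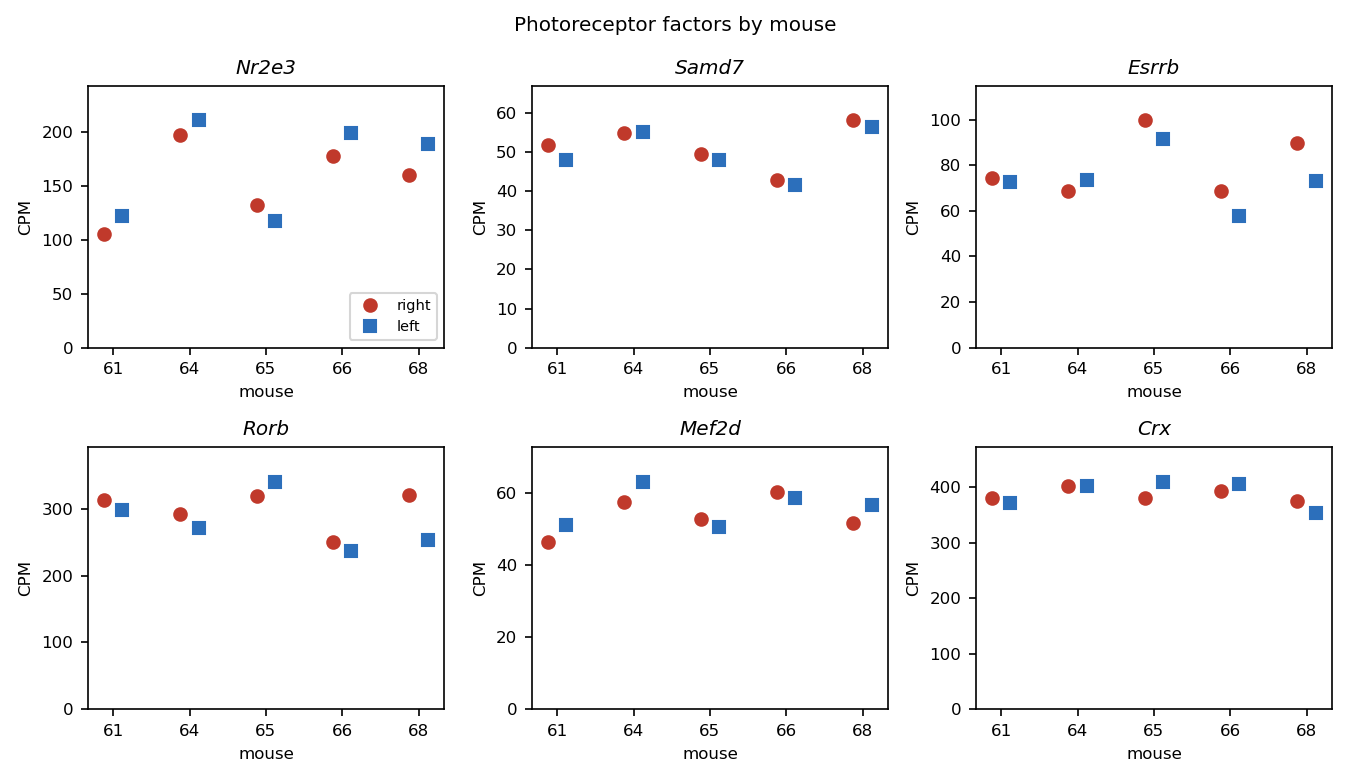
CPM of 6 photoreceptor factors in the right (red circles) and left (blue squares) retina of each of the 5 mice. Nr2e3 lies at 105 to 132 CPM in mice 61 and 65 and at 160 to 211 CPM in the others, Samd7 values of fellow eyes lie close together, and Crx stays between 353 and 410 CPM.

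Of the other classes, limma called no factor between mice. Neurod4 had 55.5, 63.2, 49.5, 55.1 and 57.7 CPM in right and 50.2, 56.8, 53.2, 60.3 and 52.5 CPM in left retinas (range 0.22, adjusted p = 0.430). Prox1 had 75.8, 89.3, 87.6, 81.0 and 88.7 CPM in right and 77.0, 82.4, 87.2, 88.3 and 83.2 CPM in left retinas, with both eyes of mouse 61 lowest (range 0.19, adjusted p = 0.399). Pax6 had 94.9, 106, 99.7, 95.5 and 98.1 CPM in right and 99.6, 103, 98.2, 106 and 94.1 CPM in left retinas, with no mouse apart from the rest. Zeb2, a zinc finger repressor, had 59.4, 68.2, 62.7, 63.0 and 65 CPM in right and 58.7, 61.2, 64.3, 68 and 60.4 CPM in left retinas. The median share of variation between mice was 73.9% for photoreceptor, 64.2% for bipolar, 71.4% for horizontal, 42.9% for amacrine and 52.2% for eye field and patterning factors, where the median of all genes was 56.1%.

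Because 1 eye of each mouse wore the lens whichever its side, the size of the difference between fellow eyes was described as well, with no test. Right-minus-left differences of the 5 mice had a root mean square with a median of 0.135 log2 units over the 46 factors and of 0.131 over all genes tested. Set against the 200 genes nearest in level, 31 of the 46 factors (67.4%) were above the median of those genes, where 50.2% of all genes were. More than 2 times that median were 4 of 46 factors (8.70%), where 5.64% of all genes were. These were Neurod1, Esrrb, Nr2e3 and Rorb, of the photoreceptor class, above 99%, 95%, 91.5% and 89.0% of the genes nearest in level. Meis2 followed with a ratio of 1.73. The opposite end held Meis1 (0.590) and Casz1 (0.611), whose fellow eyes were closer than those of most genes of their level. Ratios above 2 were also found outside the factors, as in the rod genes Pde6g (3.38), Gngt1 (3.08) and Reep6 (3.06). The cone genes Arr3 (2.83) and Opn1sw (2.47) had them too, whereas Pde6a (0.335), Cnga1 (0.467) and Pde6c (0.331) lay low.

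Neurod1 (chromosome 2, bases 79452521 to 79456751, minus strand) was the outstanding case among the tested factors. Its root mean square was 0.323, or 4.23 times the 0.076 of genes of its level. It had 91.6, 113, 89.5, 89.3 and 104 CPM in the right retinas of mice 61, 64, 65, 66 and 68, against 79.0, 83.0, 112, 117 and 91.3 CPM in the left retinas. Right was higher by 0.21, 0.44 and 0.19 log2 units in mice 61, 64 and 68 and lower by 0.32 and 0.39 in mice 65 and 66, so the mean over mice was 0.03 (SE 0.11). The higher side thus changed from mouse to mouse, and the mouse means lay between 85.3 and 103 CPM (adjusted p between mice = 0.760).

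The 13 protein-coding genes of the mitochondrial genome were set beside it. They summed to 4027, 5330, 4690, 4535 and 5142 CPM in right and 3741, 4221, 5179, 5201 and 4550 CPM in left retinas. Their sum took the same sign as Neurod1 in all 5 mice, but not every gene did. In mice 61, 64, 65, 66 and 68, 11, 11, 2, 1 and 10 of the 13 were higher on the right. The shares of all genes were 38.0%, 44.1%, 62.7%, 60.4% and 47.1%. Their part in the difference of Neurod1 was not tested. Cerkl, a photoreceptor gene on the same strand whose annotated span holds all of Neurod1, had 29.0, 28.9, 29.2, 26.1 and 26.3 CPM in right and 30.1, 28.4, 30.6, 30.5 and 27.0 CPM in left retinas. The right retina had less Cerkl except in mouse 64, by at most 0.22 log2 units in a mouse.

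**Figure D4:**
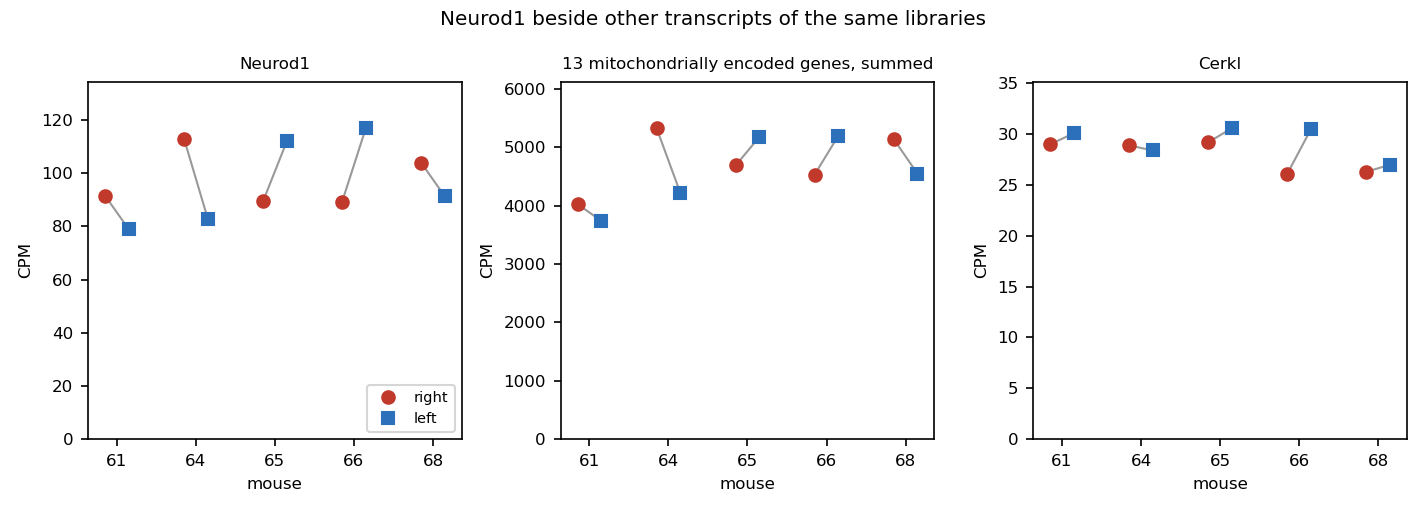
CPM of Neurod1, summed CPM of the 13 mitochondrially encoded genes, and CPM of the overlapping gene Cerkl in the right (red circles) and left (blue squares) retina of each mouse, with a line between fellow eyes. Neurod1 and the mitochondrial sum are higher in the right retina of mice 61, 64 and 68 and higher in the left retina of mice 65 and 66.

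Of the other 45 tested factors, 6 had the same signs as Neurod1 in all 5 mice, namely Mef2c, Neurod4, Ebf1, Meis2, Six6 and Zeb2, a pattern chosen after the values were seen. The share of all genes with those signs was 5.90%. Among rod genes, Gngt1 had those signs (0.06, 0.15, −0.32, −0.37 and 0.09) and Prph2 had every sign turned. Meis2 had 46.5, 53.1, 46.5, 45.9 and 50.1 CPM in right and 45.5, 47.0, 50.9, 50.6 and 44.5 CPM in left retinas, with differences between −0.14 and 0.17. All the signs turned round were shared by Otx2, Nrl, Mef2d and Irx6, 4 of 46, and by 17.0% of all genes.

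In mice 64 and 66, most amacrine, eye field and patterning factors differed in the same direction. These mice and classes were picked out after the values were seen, and factors counted within a mouse share its libraries. In mouse 64, 11 of 12 amacrine factors and 10 of 10 eye field and patterning factors were higher in the right retina, with median differences of 0.12 and 0.21 log2 units, while 44.1% of all genes were (median −0.02). Six3, Sox4 and Tbx3 differed most there, by 0.43, 0.42 and 0.34. In mouse 66, 2 of 12 and 2 of 10 were higher on the right (medians −0.14 and −0.06), beside 60.4% of all genes. In mouse 65, 0 of 10 eye field and patterning factors were higher on the right (median −0.11), beside 62.7% of all genes (median 0.04). Amacrine factors there, with 8 of 12 (66.7%, median 0.01), were near that share. Mice 61 and 68 had 4 and 9 of 12 amacrine and 5 and 6 of 10 eye field and patterning factors higher on the right. The shares of all genes in those mice were 38.0% and 47.1%.

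Ganglion cell genes moved alongside, with 12 of 13 higher on the right in mouse 64 and 2 of 13 in mouse 66. The 18 tested amacrine cell genes, which encode transmitter enzymes and peptides, did not follow, with 10 of 18 higher on the right in mouse 64 and 12 of 18 in mouse 66. Of cone genes, 3 of 14 were higher on the right in mouse 64 and 11 of 14 in mouse 66. Rod genes, with 7 of 21 (33.3%) in mouse 64 and 14 of 21 (66.7%) in mouse 66, were nearer to all genes, at 44.1% and 60.4%. Of the photoreceptor factors themselves 5 and 8 of 13 were higher on the right. Mouse 64 had mitochondrial sums of 5330 CPM on the right and 4221 CPM on the left, and its right library is the one with the shortened file. The part of these in the differences was not tested.

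**Figure D5:**
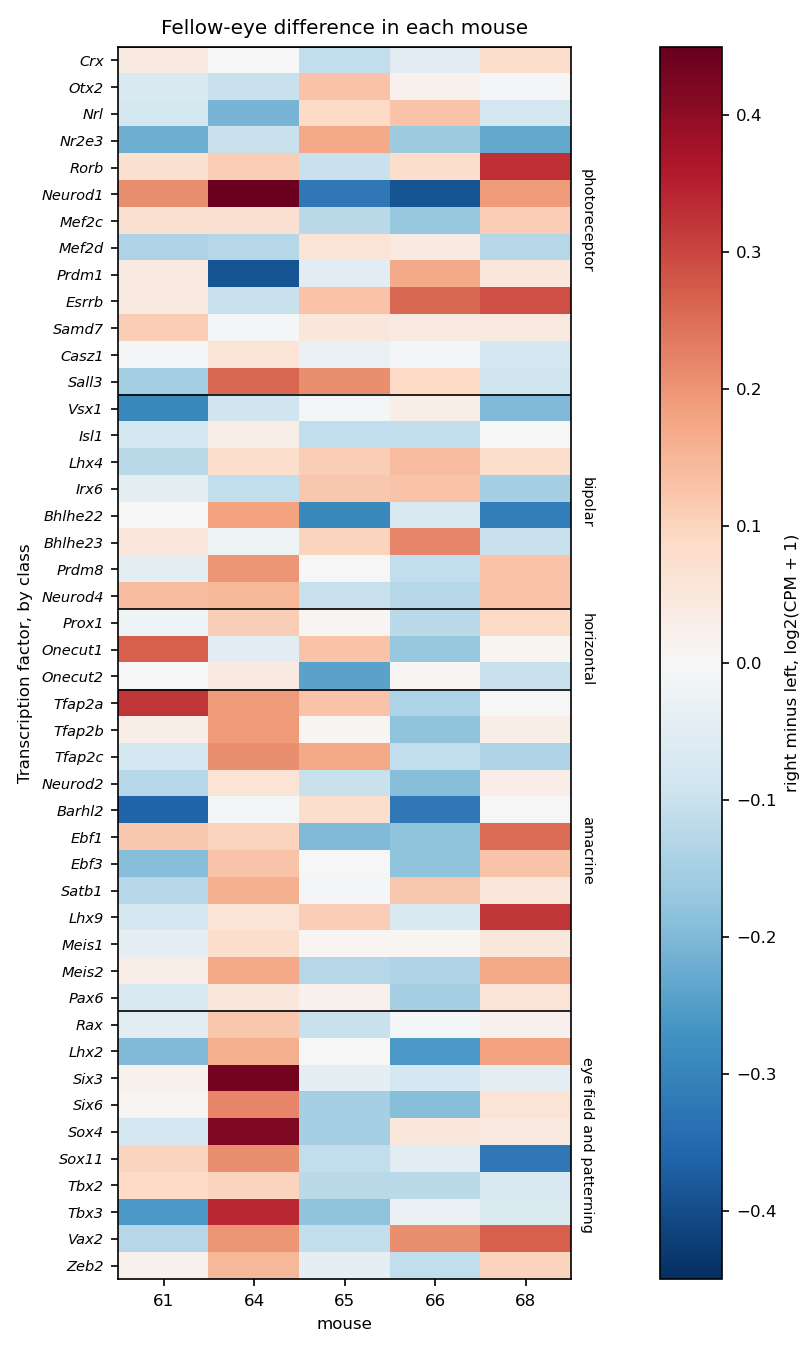
Right minus left retina in log2(CPM + 1) for the 46 tested factors (rows, by class) in each of the 5 mice (columns), red where the right retina was higher and blue where the left was. The amacrine and the eye field and patterning rows are mostly red in mouse 64 and mostly blue in mouse 66, and Neurod1 stands at 0.44 in mouse 64 and at −0.39 in mouse 66.

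Some of these factors are also made in tissue next to the retina. PAX6, SIX3 and PROX1 also act in the lens, and in mouse 65, with lens genes at 910 CPM on the right and 12.5 CPM on the left, Pax6, Six3 and Prox1 differed by 0.02, −0.04 and 0.01 log2 units. The part of lens tissue in their values was not tested. Otx2 is also a factor of pigment epithelium, whose 15 listed genes summed to 195 CPM on the right and 150 CPM on the left in mouse 65, where Otx2 differed by 0.13. The part of pigment epithelium in it was not tested. Mef2c, also a muscle factor, differed by 0.11 in mouse 68, with the muscle genes at 4.78 CPM on the right and 90.4 CPM on the left. The part of muscle in it was not tested either.

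A further list held transcription factors of the retina outside the 51. The table had 67 such genes, of which 47 were tested, and limma called 0 between sides and 0 between mice, with 1 and 4 at an unadjusted p under 0.05. Maf, a leucine zipper related to Nrl, led between sides, higher on the right by 0.29 log2 units (SE 0.09, limma adjusted p = 0.9996). All 13 tested lens genes were also higher on the right (median 1.20 log2 units), and the part of lens tissue in the difference of Maf was not tested. Insm1, a zinc finger factor, led between mice, with a range of 0.51 (limma F-test adjusted p = 0.168). Over the 47 the median difference was 0.02, beside 0.00 for the 46 identity factors and 0.00 for all genes. Of the lists of cell type genes, that for horizontal cells held 1 gene of 6 called between mice, Ndrg1 (range 0.41 log2 units, adjusted p = 0.0181).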

How the data were processed

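The deposited table gives 1 value per gene and retina. Its unit, CPM, was inferred from the deposited values, and 0.0001, which the authors' table holds in place of 0, was taken off. Per the submitters' processing notes STAR and Partek were used with the build GRCm38 (mm10). The sources used here give no version, counting rule or gene filter. Of low values, 90.7% to 91.8% were whole multiples of the step within a tolerance of 0.1, so no count model was used, and depth is an inference.

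Genes that averaged 1 CPM or more were fitted on log2(CPM + 1), which understates changes of weak genes, with limma 3.58.1 in R 4.3.3, with terms for side and mouse, a variance trend and Benjamini-Hochberg adjustment over all 14210 genes. The fit was tested on simulated data. The 2 retinas of a number are from 1 animal, and their deviations from the side means correlated at 0.607, 0.143, 0.166, 0.172 and 0.311 in mice 61, 64, 65, 66 and 68, so the mouse was a block. Values per kilobase used merged GENCODE M21 exons. The factors, classes and gene lists were chosen with earlier results of these data known. The mitochondrial list, the overlapping genes and the signs of Neurod1 were taken up after the values were seen. So were the mice and classes set apart by direction. By rule, per-library values are printed for factors that pass a test, the 6 of lowest p between sides and between mice, the 5 with the largest fellow-eye ratio, and the highest of each class by mean CPM. Alternatives varied the pseudocount, filter, block, scaling, variance prior and mice.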

Additional observations from a re-analysis of the deposited data

Results flagged for a closer look

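In 4 of 92 groups of 5 libraries (46 factors on 2 sides), the gap between 1 sample and its nearest neighbour was over 0.71 of the group's range. Chance flags about 1 in 20 such groups, which is as many as were found. Mouse 61 had the outlying left retina for Casz1, with 61.5 CPM where the other 4 left retinas had 69.3 to 69.8, and for Sox11, with 1.66 CPM where they had 2.25 to 2.45. Mouse 64 had it for Bhlhe22, with 6.55 CPM where the other left retinas had 7.92 to 8.40, and for Tbx3, with 2.36 CPM where they had 3.05 to 3.29. For Casz1 the right retina of mouse 61, at 60.9 CPM, was also the lowest of its side.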

How the results depend on the processing

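Between sides, limma called 0 genes and 0 identity factors under each of the 14 alternatives, the fit without the replicate block and those without 1 mouse included. The number with an unadjusted p under 0.05 ran from 188 (no replicate block) to 856 (no filter) genes. Between mice, 81 genes and 2 factors were called. With no trend in the prior variance these were 36 genes and 0 factors. Leaving out each mouse gave 23 to 88 genes and 0 to 3 factors, with 0 factors without mouse 61, and 1 factor, Nr2e3, without mouse 66 or mouse 68. Nr2e3 was called under 11 of the 13 alternatives that apply, Samd7 under 9 and Esrrb under 3. Right minus left of Esrrb, Nr2e3, Vsx1, Rorb, Barhl2 and Samd7 kept its sign under these alternatives, and the signs of other factors and lists were not recomputed. Depth is inferred and limits factors under 1 CPM, and 5 pairs limit the rest.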
